A study of Homo sapiens with 19 samples.

Results

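ERRα peaks were examined near 32 genes that take up glucose, break it down to pyruvate and exchange lactate, out of 19515 protein-coding genes. The members are glucose transporters of the SLC2A family, every enzyme step from hexokinase to lactate dehydrogenase, the enzymes that set the level of fructose 2,6-bisphosphate, and the monocarboxylate transporters SLC16A1 and SLC16A3. They were taken by name, and a peak was assigned to a gene when the centre of the peak lay within 20 kb of any annotated transcription start of that gene.

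Glycolysis converts glucose to pyruvate in the cytosol, and tumour cells often send much of that pyruvate to lactate instead of the mitochondria. ERRα is an orphan nuclear receptor that binds DNA at the ERR response element (ERRE) and is best known for control of mitochondrial genes. It has also been placed at genes of glycolysis, which makes this pathway a point where both arms of energy metabolism meet.

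The data are ERRα ChIP-seq peak lists from breast cancer cell lines with amplified HER2, made from 13 ChIP and 6 input libraries. SKBr3 and BT-474 cells were starved of serum for 24 h and given vehicle (PBS), EGF or heregulin (HRG), both labelled as 100 µM, for 90 min. Parental, lapatinib-sensitive SKBr3 cells (pSKBr3) were untreated, and their lapatinib-resistant derivative (LRSKBr3) was kept in 2 µM lapatinib, an inhibitor of the EGF receptor and HER2, so that the presence of the drug and the resistance of the line cannot be told apart. None of the cells is labelled as carrying an engineered allele. Each of the 8 conditions has 1 peak list. Reads of 2 ChIP libraries were pooled for a list of SKBr3, pSKBr3 or LRSKBr3 cells, whereas a BT-474 list comes from a sole ChIP library and all BT-474 lists share the vehicle input. A difference between conditions is therefore a difference between lists with no replicate error, and no treatment effect was tested. Peak lists hold no expression values, so the identity of the lines was not checked and binding was not set against transcript levels.

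The lists held between 22539 peaks (pSKBr3) and 41271 peaks (BT-474 HRG), with median widths of 1188 to 2012 bp. SKBr3 lists of vehicle, EGF and HRG held 32183, 32567 and 37195 peaks, those of BT-474 held 32259, 26832 and 41271, and LRSKBr3 had 39777. Tag counts are not part of the lists, so the sequencing depth behind them is unknown. The score of a peak is its P value on a negative logarithmic scale and grows with depth, so each peak is described by the percentile of its score within its own list. Many strong peaks tie near a score of 3100, which places them together at a percentile of about 98.6. Values for the 8 lists are given in the order SKBr3 vehicle, EGF and HRG, then BT-474 vehicle, EGF and HRG, then pSKBr3 and LRSKBr3, unless the lists are named.

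The sequences below carry the ERRE word TCAAGGTCA, shown in capitals, at peaks of members that had either a promoter peak in all 8 lists or the word in at least 4 lists. They are hg19 reference sequence, read on the strand that holds the word, and were chosen because the word lay within 100 bp of the centre of at least 1 peak.
SLC2A4, chr17:7186252-7186340, plus strand, intron of SLC2A4: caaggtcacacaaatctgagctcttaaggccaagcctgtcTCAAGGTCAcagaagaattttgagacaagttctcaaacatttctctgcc
HK1, chr10:71067316-71067404, minus strand, intron of HK1: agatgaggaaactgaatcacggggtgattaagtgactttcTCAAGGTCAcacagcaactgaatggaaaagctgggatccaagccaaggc
PGAM1, chr10:99186331-99186419, plus strand, intron of PGAM1: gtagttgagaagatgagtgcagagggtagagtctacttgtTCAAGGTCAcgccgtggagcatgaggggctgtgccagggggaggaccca
LDHB, chr12:21811577-21811665, plus strand, intron of LDHB: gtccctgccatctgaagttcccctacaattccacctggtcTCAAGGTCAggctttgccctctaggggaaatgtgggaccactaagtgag
PFKFB2, chr1:207262459-207262547, plus strand, intron of the neighbouring gene C4BPB: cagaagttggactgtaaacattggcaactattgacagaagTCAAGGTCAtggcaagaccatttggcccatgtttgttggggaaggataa
PFKFB2, chr1:207193225-207193253, minus strand, exon of the neighbouring gene C1orf116: attaggatggTCAAGGTCAtcaggagtac

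The GAPDH promoter is shown in addition, picked after its values were seen, because peaks of all 8 lists covered its word although every peak centre lay 314 to 1150 bp away from it.
GAPDH, chr12:6644113-6644201, plus strand, exon of GAPDH: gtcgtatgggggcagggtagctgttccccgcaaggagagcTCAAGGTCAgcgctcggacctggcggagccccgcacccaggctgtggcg

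Most members had an ERRα peak within 20 kb in every list. In SKBr3 cells, 28 of 32 members were called on vehicle (87.5%, against 54.1% of all protein-coding genes), 27 on EGF (84.4%, against 56.3%) and 30 on HRG (93.8%, against 66.2%). The BT-474 lists called 26 on vehicle (81.2%, against 53.1%), 21 on EGF (65.6%, against 42.5%) and 24 on HRG (75%, against 55.5%). In pSKBr3 cells 27 were called (84.4%, against 57%), and in LRSKBr3 cells 30 were called (93.8%, against 69.7%). The members' share was thus above the share of all genes in each of the 8 lists. It was lowest in the BT-474 EGF list and highest in the SKBr3 HRG and LRSKBr3 lists, an order that all genes shared.

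Peaks close to a start were counted separately. A peak centre within 1 kb of a start, called a promoter peak here, was found for 17 members in SKBr3 vehicle (53.1%, against 23.3% of all genes), 19 in EGF (59.4%, against 22.4%) and 19 in HRG (59.4%, against 35.7%). BT-474 cells had 16 (50%, against 19.5%), 14 (43.8%, against 11.5%) and 17 (53.1%, against 16.9%) on vehicle, EGF and HRG. The count was 20 in pSKBr3 (62.5%, against 31.3%) and 23 in LRSKBr3 (71.9%, against 41.7%). Members carry more annotated starts than other genes, with a median of 10 against 5, spread over a median of 19721 bp against 10176 bp. This raises the chance that a peak lies near any of them, and the counts with 1 start per gene are therefore given below. Within 1 kb of the outermost 5′ end of each gene alone, 6 of the 32 members had a peak in SKBr3 HRG, where 26.2% of all genes had one, and 4 in BT-474 vehicle (12.5%, against 12.1%), so that the members' share was below or near that of all genes in these 2 lists.

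**Figure D1:**
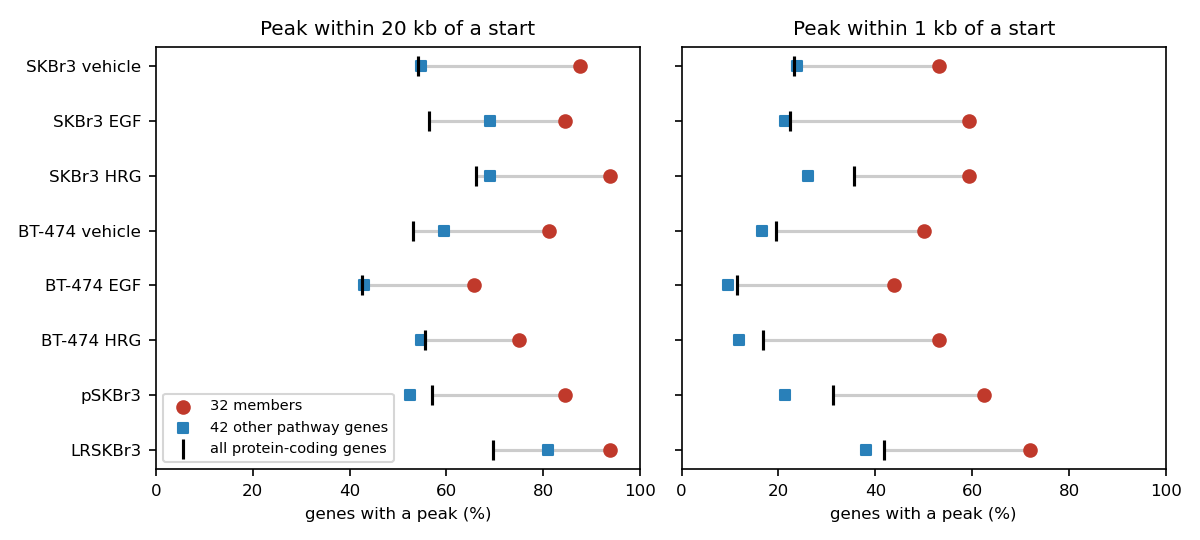
Share of genes, in percent, with an ERRα peak centre within 20 kb (left) or 1 kb (right) of an annotated start, for each of the 8 peak lists. Red circles are the 32 members, blue squares the 42 other pathway genes and black bars all protein-coding genes. The red circles lie to the right of the black bars in all 8 lists in both panels, for example at 53.1% against 23.3% within 1 kb in SKBr3 vehicle.

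Many members had a call in every list, which need not rest on the same site. Within 20 kb, 18 members had a peak in all 8 lists (56.2%, against 26.9% of all genes), and no member lacked a peak in every list, against 15.4% of all genes. A promoter peak was called in all 8 lists for 11 members (34.4%, against 6.56%). These were HK1, GPI, PFKM, PFKP, ALDOA, TPI1, GAPDH, PGAM1, PKM, LDHA and LDHB. They span the pathway from the phosphorylation of glucose to the formation of lactate.

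When only the start of the canonical transcript of each gene was used, a choice added after the data were seen, 16 members had a peak within 20 kb in all 8 lists (50%, against 19.2%). Within 1 kb of that start, 5 members had a peak centre in all 8 lists (15.6%, against 3.75%), namely GPI, PFKM, PKM, LDHA and LDHB. Centres of wide peaks can lie over 1 kb from a start that the peak still covers. A peak covered the base of the canonical start in all 8 lists for 8 members (25%, against 3.71%), namely GPI, PFKM, PFKFB2, ALDOA, GAPDH, ENO1, PKM and LDHA. For 13 members no list had a peak over that base (40.6%, against 61.2%), and among them were SLC2A3, SLC2A4, HK2, PFKL and SLC16A3.

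A further 42 genes of the same pathway, such as rarely expressed isozymes, gluconeogenic enzymes, other sugar transporters and regulators, were read the same way. Between 18 and 34 of them had a peak within 20 kb, with counts of 23, 29, 29, 25, 18, 23, 22 and 34 in the order of the lists. These were 54.8%, 69%, 69%, 59.5%, 42.9%, 54.8%, 52.4% and 81% of the 42, against 54.1%, 56.3%, 66.2%, 53.1%, 42.5%, 55.5%, 57% and 69.7% of all genes. All 8 lists called 9 of the 42 (21.4%, against 26.9%), and promoter peaks in all 8 lists were found for 2 (4.76%, against 6.56%). Of these 9, 5 were among the 10 regulators, 2 among the 7 gluconeogenic genes, 2 among the 14 isozymes and further enzymes, and 0 among the 11 transporters and chaperones. PDK2, a kinase that holds pyruvate dehydrogenase inactive, had a promoter peak in all 8 lists, with the ERRE word at it in 5, and its strongest peak ranked between percentiles 23.4 and 83.9. No peak in any list lay within 20 kb of PGK2, G6PC2 or EMB, which are a phosphoglycerate kinase, a glucose-6-phosphatase subunit and a transporter chaperone.

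**Figure D2:**
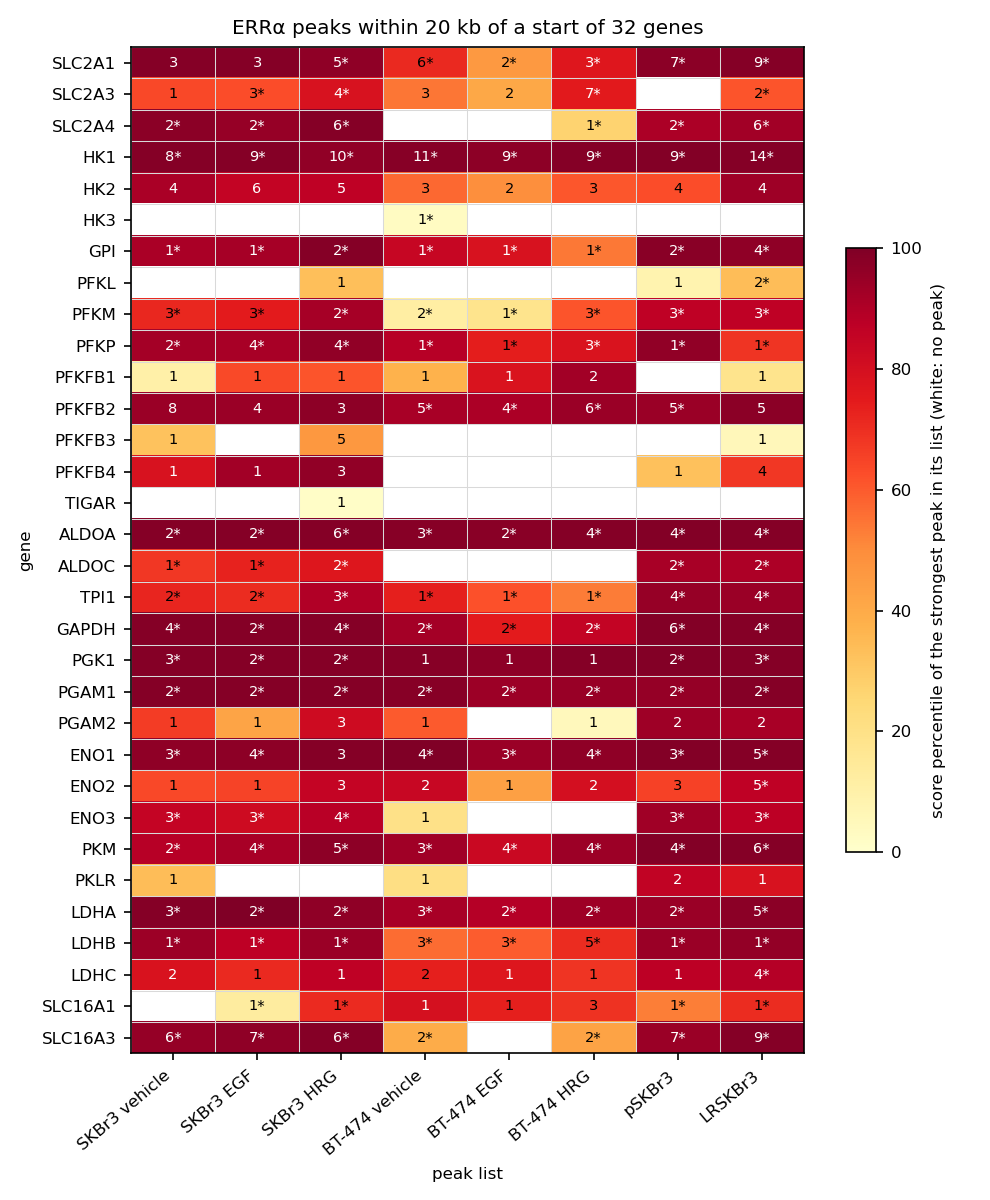
Number of ERRα peaks within 20 kb of a start for the 32 members (rows) in the 8 lists (columns), with the colour giving the score percentile of the strongest peak in its own list and white no peak. An asterisk marks a peak centre within 1 kb of a start. HK1 has 8 to 14 peaks in each list, whereas HK3 and TIGAR have 1 peak in 1 list.

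The peaks near members also ranked high in their lists. The median percentile of the strongest peak of a bound member was 91.1, 91.6 and 95.4 in SKBr3 vehicle, EGF and HRG, where all bound genes had 71.7, 68.3 and 72.6. In BT-474 cells it was 76.5, 76.9 and 77.3, with 65.6, 65.7 and 67.7 for all bound genes. For pSKBr3 and LRSKBr3 the medians were 94.2 and 93.2, with 70.7 and 74.96 for all bound genes. A gene with more peaks has more chances of a high rank, and bound members had a median of 2, 2, 3, 2, 2, 2.5, 2 and 4 peaks in the order of the lists, against 2, 2, 2, 1, 1, 2, 2 and 2 for all bound genes. The gap between members and all bound genes was narrower in the 3 BT-474 lists than in the other lists.

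Glucose transporters bring glucose across the plasma membrane. SLC2A1 (GLUT1), the transporter that most cells rely on, had 3, 3, 5, 6, 2, 3, 7 and 9 peaks. Its strongest peak ranked at percentiles 98.6, 98.6 and 96.9 in SKBr3 cells, 71.3, 46.0 and 76.5 in BT-474 cells, and 97.4 and 98.7 in pSKBr3 and LRSKBr3 cells. The BT-474 percentiles lay below all 5 others, and the share of all genes with this order was not counted. A stretch inside the gene, chr1:43400502-43417029, was called in all 8 lists, while the canonical start at chr1:43424539 was covered by a peak in pSKBr3 and LRSKBr3 only, at chr1:43422526-43425804. SLC2A1 thus had intragenic peaks in all conditions and a peak over its main start in the 2 lists of cells that are not labelled as starved of serum.

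SLC2A3 (GLUT3), a high-affinity transporter, had 1, 3, 4, 3, 2, 7, 0 and 2 peaks, and was the only 1 of the 3 glucose transporters without a peak in pSKBr3. A peak centre lay within 1 kb of one of its 11 annotated starts in SKBr3 EGF, SKBr3 HRG, BT-474 HRG and LRSKBr3, at chr12:8070215-8073693 in all of these. No vehicle list called that site. In percentile its strongest peaks were moderate, at 63.8, 62.6 and 78.7 in SKBr3, 54.6, 40.9 and 75.01 in BT-474, and 61.1 in LRSKBr3. Peaks over chr12:8178094-8180132 and chr12:8189805-8191897 lie nearer to FOXJ2 and count for SLC2A3 only through a distant annotated start, and the SKBr3 vehicle call rests on a peak at the former alone.

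SLC2A4 (GLUT4), the insulin-responsive transporter of muscle and fat, had the ERRE word near a peak centre in 6 lists, as did HK1. Its intronic site at chr17:7185528-7187164 was called in SKBr3 vehicle, EGF and HRG, BT-474 HRG, pSKBr3 and LRSKBr3, and the ERRE word lay 16 to 91 bp from the centre in 6 of 6 peaks. The word sits 1259 bp downstream of the canonical start. The strongest SLC2A4 peak ranked at percentiles 97.4, 95.1 and 98.6 in SKBr3 cells and at 90.7 and 92.8 in pSKBr3 and LRSKBr3 cells. BT-474 had no SLC2A4 peak on vehicle or EGF, and its HRG peak ranked at percentile 26.6, so the percentile of that sole BT-474 peak was below those of the SKBr3-derived lists, which shared the site.

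Hexokinases trap glucose in the cell by phosphorylation. HK1, the widely expressed isozyme, had more peaks over the 8 lists than any other member, 79, with 8, 9, 10, 11, 9, 9, 9 and 14 in the order of the lists. The percentile of its strongest peak was between 96.25 and 98.85 in every list. The peaks merged into 13 sites along the gene, and 6 of these were called in all 8 lists. HK1 is long, with 25 annotated starts over 112733 bp, which gives it more room for peaks than a short gene has. The printed HK1 sequence comes from a site called in all 8 lists, chr10:71066025-71068321, and the word lay 11 to 274 bp from the peak centres there, within 100 bp in 6 lists.

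HK2, the isozyme often raised in tumours, had 4, 6, 5, 3, 2, 3, 4 and 4 peaks and no promoter peak in any list. Its site called in all 8 lists, chr2:75082674-75084504, lay 1962 bp or more from the nearest annotated start. The strongest HK2 peak ranked at percentiles 91.2, 85.4 and 86.6 in SKBr3, 57.2, 48.9 and 60.7 in BT-474, 62.7 in pSKBr3 and 93.5 in LRSKBr3. LRSKBr3 ranked highest and pSKBr3 was near the BT-474 values. HK3, expressed mainly in blood cells, had a sole peak, in BT-474 vehicle, at percentile 2.79, which was lost in both BT-474 growth factor lists.

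GPI, which turns glucose 6-phosphate into fructose 6-phosphate, had its promoter called in all 8 lists at chr19:34854834-34858485. The strongest peak ranked at percentiles 91.1, 92.1 and 98.6 in SKBr3, 84.2, 78.9 and 54.1 in BT-474, and 97.7 and 96.7 in pSKBr3 and LRSKBr3. On HRG the percentile was the highest of the SKBr3 conditions and the lowest of the BT-474 conditions.

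Phosphofructokinase catalyses the committed step of glycolysis, and its 3 genes had unlike patterns. PFKM, the muscle type, had a peak over its canonical start in all 8 lists, at chr12:48512059-48514179, with percentiles for its strongest peak of 71.6, 74.7 and 92.1 in SKBr3, 11.6, 18.1 and 61.3 in BT-474, and 86.4 in both pSKBr3 and LRSKBr3. In each line the HRG list ranked it highest. PFKP, the platelet type, had a site in all 8 lists at chr10:3109582-3112608. Peak centres of this site lay 1218 to 1584 bp downstream of the canonical start but near another annotated start. The strongest PFKP peak ranked at percentiles 92.4, 91.6 and 96.3 in SKBr3, 88.7, 74.2 and 78.1 in BT-474, 96.1 in pSKBr3 and 68.7 in LRSKBr3.

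PFKL, the liver type, was called in SKBr3 HRG, pSKBr3 and LRSKBr3 only, at percentiles 33.4, 8.47 and 33.6. The SKBr3 HRG peak lies in an intron of PFKL, 2735 bp from the canonical start, and in LRSKBr3 a peak at percentile 8.94 lay at −526 bp of it. The pSKBr3 peak and the stronger LRSKBr3 peak lie at the start of the neighbouring gene CFAP410. PFKL was thus the least bound of the phosphofructokinase genes.

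The bifunctional PFKFB enzymes make and break fructose 2,6-bisphosphate, the activator of phosphofructokinase, and TIGAR breaks it down. PFKFB2, the heart type that is also expressed in other tissues, was the only gene of this group bound in all 8 lists, with 8, 4, 3, 5, 4, 6, 5 and 5 peaks and percentiles between 90.7 and 97.3. Most of these peaks lay nearer to C1orf116, YOD1 or C4BPB. From the nearest start only, PFKFB2 was called in 5 lists and not in SKBr3 EGF, SKBr3 HRG or LRSKBr3. A peak covered its canonical start in every list, although the centre lay within 1 kb of a start only in the 3 BT-474 lists and pSKBr3. The site over that start, chr1:207222217-207228221, was nearest to PFKFB2 or to YOD1, depending on the list. Both printed PFKFB2 sequences lie closer to other genes, at sites chr1:207192101-207203146 and chr1:207261259-207263406, called in 8 and 6 lists. The word was at a PFKFB2 peak in 4 lists, namely SKBr3 vehicle, SKBr3 HRG, BT-474 HRG and LRSKBr3.

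The other genes of this group had fewer calls. PFKFB1, the liver type, was called in all lists but pSKBr3, with percentiles of 10.5, 63.6 and 61.1 in SKBr3, 37.4, 78.1 and 92.9 in BT-474 and 18.3 in LRSKBr3. A site inside the gene, chrX:55004038-55007046, was called in SKBr3 EGF and HRG and in the 3 BT-474 lists but in neither SKBr3 vehicle nor the pSKBr3 and LRSKBr3 lists. The calls in SKBr3 vehicle and LRSKBr3 rest on another site alone, chrX:55032187-55033269, which lies nearest to APEX2. PFKFB4 was called in the 5 SKBr3-derived lists and in no BT-474 list, at chr3:48575161-48577444, with percentiles of its strongest peak of 78.6, 92.7 and 96.4 on vehicle, EGF and HRG, 32.8 in pSKBr3 and 67.8 in LRSKBr3.

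PFKFB3, the isozyme linked to growth and hypoxia, was called in SKBr3 vehicle, SKBr3 HRG and LRSKBr3, with 1, 5 and 1 peaks at percentiles up to 32.2, 46.1 and 5.30. All of these peaks lie in introns of PFKFB3. TIGAR, a target of p53, had a sole peak, in SKBr3 HRG at percentile 1.397, 12178 bp from its nearest start. Both genes were called only by peaks from the lower part of their lists.

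Aldolase splits fructose 1,6-bisphosphate. ALDOA, the main isozyme of most cells, had a peak over its canonical start in all 8 lists, at chr16:30075717-30082046, and a further site 2897 bp or more from a start in all 8, at chr16:30071092-30073557. Its strongest peak ranked at percentiles between 97.9 and 98.9 in every list, among the strongest peaks of each. ALDOC, the brain type, was called at its promoter, chr17:26903402-26905277, in the 5 SKBr3-derived lists and had no peak in BT-474. The ALDOC percentiles were 67.9, 73.0 and 76.8 in SKBr3 and 91.8 and 90.5 in pSKBr3 and LRSKBr3.

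The triose enzymes TPI1 and GAPDH, which interconvert and oxidise the 3-carbon sugars, both had promoter peaks in all 8 lists. TPI1 was ranked at percentiles 72.3, 70.6 and 89.7 in SKBr3, 73.7, 61.7 and 53.2 in BT-474, and 95.1 and 94.3 in pSKBr3 and LRSKBr3. The canonical TPI1 start was covered in the 5 SKBr3-derived lists only, and in BT-474 the peak centre lay 1989 to 2221 bp downstream, near another annotated start of the gene. GAPDH had 4, 2, 4, 2, 2, 2, 6 and 4 peaks, with percentiles of 98.57 or more in the SKBr3-derived lists and 92.5, 74.6 and 85.5 in BT-474. Its promoter site, chr12:6640858-6649706, holds the word printed above.

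PGK1, which makes the first ATP of the pathway, was called at its promoter in the 5 SKBr3-derived lists, at chrX:77359091-77361111, with centres 281 to 376 bp downstream of the start. None of the BT-474 lists called that site. The call of PGK1 in BT-474 rests on the site chrX:77153989-77157166 at the start of COX7B, whose peak centres lie at −204211 to −204130 bp of the canonical PGK1 start and 10621 to 10702 bp from another annotated one. That site ranked at percentile 97.05 or more in BT-474. Together with ALDOC and ENO3, PGK1 was 1 of 3 members with a promoter peak in the 5 SKBr3-derived lists and in no BT-474 list (9.38%, against 3.84% of all genes). By the peak over the canonical start, these were ALDOC, TPI1 and PGK1 (9.38%, against 2.85%).

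PGAM1, the phosphoglycerate mutase of most tissues, had 2 peaks in every list. Its site at the start, chr10:99185314-99188189, and a site in an intron of RRP12, chr10:99166624-99169594, were called in all 8 lists. The strongest peak ranked at percentiles of 98.6, 98.6 and 98.6 in SKBr3, 98.3, 93.9 and 94.7 in BT-474, and 95.4 and 98.7 in pSKBr3 and LRSKBr3. The printed ERRE word 427 bp downstream of the PGAM1 start was covered by peaks in 7 lists and lay within 100 bp of the centre in BT-474 EGF and pSKBr3. PGAM2, the muscle form, was called in all lists but BT-474 EGF, at percentiles of 66.5, 42.1 and 81.7 in SKBr3, 60.0 and 4.33 in BT-474 vehicle and HRG, and 93.4 and 91.7 in pSKBr3 and LRSKBr3. The site called in those 7 lists, chr7:44119974-44123813, is nearer to POLM, a DNA polymerase gene.

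Enolase makes phosphoenolpyruvate. ENO1, the common isozyme, had a peak over its canonical start in all 8 lists, at chr1:8933063-8941272, and a site 10875 bp or more from a start in all 8, at chr1:8948836-8951577. Its percentiles were 96.9, 97.0 and 98.6 in SKBr3, 99.9, 94.5 and 96.8 in BT-474, and 98.9 and 98.7 in pSKBr3 and LRSKBr3. ENO2, the neuronal isozyme, was called in all 8 lists, but the site in all 8, chr12:7037655-7041001, is nearer to ATN1, and only LRSKBr3 had a peak within 1 kb of an ENO2 start.

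ENO3, the muscle isozyme, was called in the SKBr3-derived lists at percentiles of 85.1, 81.7 and 88.3 on vehicle, EGF and HRG and 93.0 and 87.2 in pSKBr3 and LRSKBr3. BT-474 vehicle had an ENO3 call at percentile 19.6, and neither BT-474 growth factor list had any. The site closest to an ENO3 start, chr17:4850847-4853443, is shared with the start of PFN1. As with ALDOC, the call was made in SKBr3 cells under every condition and not at the promoter in BT-474.

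Pyruvate kinase forms pyruvate in the last step of glycolysis. PKM, whose M2 splice form is the tumour type, had a peak over its canonical start in all 8 lists, in the stretch chr15:72517889-72525545, with 2, 4, 5, 3, 4, 4, 4 and 6 peaks near the gene. The strongest ranked at percentiles 88.3, 91.5 and 96.9 in SKBr3, 93.3, 83.5 and 93.8 in BT-474, and 98.9 and 98.7 in pSKBr3 and LRSKBr3. PKLR, the liver and red cell gene, was called in both vehicle lists, at percentiles 33.8 and 20.9, and in pSKBr3 and LRSKBr3, at 85.6 and 78.9, but in no growth factor list. Every PKLR peak was nearer to FDPS, a gene of isoprenoid synthesis, and the site of 4 of its 5 peaks, chr1:155277592-155279772, lies at the FDPS start.

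Lactate dehydrogenase interconverts pyruvate and lactate. LDHA, the form that favours lactate, had 3, 2, 2, 3, 2, 2, 2 and 5 peaks, with a promoter stretch, chr11:18413405-18418450, and an upstream site, chr11:18404328-18406949, called in all 8 lists. Its strongest peak ranked at percentiles 98.6, 99.99 and 96.7 in SKBr3, 91.7, 88.8 and 93.6 in BT-474, and 94.2 and 97.4 in pSKBr3 and LRSKBr3. In every list this was the peak at the upstream site. The strongest peak of the promoter stretch ranked lower, at 78.1, 71.2 and 86.55 in SKBr3 and 73.45, 76.85 and 68.55 in BT-474. It ranked at 87.3 in pSKBr3 and at no more than 88.9 in LRSKBr3. The ERRE word was absent within 100 bp of every LDHA peak centre. Peaks of all 8 lists covered 3 AP-1 words, read as TGACTCA on either strand, which were looked up after the values of LDHA were seen. The share of all peaks that cover such a word over their whole width was not counted. The word at the upstream site lay within 100 bp of no peak centre. The 2 words in the promoter stretch lie at −547 and −252 bp of the canonical start. Each was within 100 bp of the centre of 3 peaks, with distances up to 1021 and 726 bp. They are shown with the AP-1 word in capitals.
LDHA, chr11:18415520-18415606, minus strand, intergenic: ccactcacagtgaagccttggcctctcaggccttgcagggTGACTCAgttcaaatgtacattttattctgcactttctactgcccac
LDHA, chr11:18415815-18415901, plus strand, intergenic: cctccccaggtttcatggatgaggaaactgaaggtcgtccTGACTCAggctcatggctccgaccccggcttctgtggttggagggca

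LDHB, the form that favours pyruvate, had its promoter site chr12:21809597-21812629 called in all 8 lists. Peaks of all 8 lists covered the printed ERRE word there. It lay 65 to 846 bp from the peak centres, and within 100 bp in BT-474 HRG only. The strongest LDHB peak ranked at percentiles 93.9, 86.8 and 94.5 in SKBr3, 56.6, 59.7 and 70.5 in BT-474, and 94.5 and 95.7 in pSKBr3 and LRSKBr3. BT-474 cells had in addition a site called in their 3 lists only, chr12:21903708-21905650. Further sites were chr12:21770458-21772180 in BT-474 vehicle and HRG, chr12:21790572-21791922 in EGF, and chr12:21794836-21796463 and chr12:21827540-21829404 in HRG. The BT-474 lists thus had 3, 3 and 5 LDHB peaks, and every other list had 1. LDHC, the testis form, lies next to LDHA. Its calls in 7 lists rest on the LDHA promoter stretch, and only LRSKBr3 had a peak at the LDHC start itself, at chr11:18433331-18434564.

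The monocarboxylate transporters carry lactate and pyruvate across the membrane. SLC16A1 (MCT1), which works in both directions, was called at its promoter, chr1:113497549-113499813, in SKBr3 EGF and HRG at percentiles 12.9 and 70.8 and in pSKBr3 and LRSKBr3 at 53.1 and 70.4. It had no peak at all in SKBr3 vehicle. In BT-474 its calls came from other sites, mainly chr1:113446144-113448186, at percentiles 79.4, 73.6 and 69.1. The SLC16A1 promoter was therefore called in the growth factor lists of SKBr3 and in the cells not labelled as starved, but in no BT-474 list.

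SLC16A3 (MCT4), the exporter of highly glycolytic cells, had 6, 7 and 6 peaks in SKBr3, 2, 0 and 2 in BT-474, and 7 and 9 in pSKBr3 and LRSKBr3. Its strongest peak ranked at percentiles 95.3, 96.8 and 98.6 in SKBr3, 94.3 in pSKBr3 and 98.7 in LRSKBr3. BT-474 vehicle and HRG ranked it at 39.2 and 42.5. No site of SLC16A3 was called in all 8 lists, and the widest call was chr17:80187074-80195083, in every list but BT-474 EGF. SKBr3-derived and BT-474 lists did not overlap in either peak number or percentile. The share of all genes separated in this way was not counted. All bound genes, too, had lower median percentiles in BT-474 (65.6 to 67.7) than in the SKBr3-derived lists (68.3 to 74.96).

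**Figure D3:**
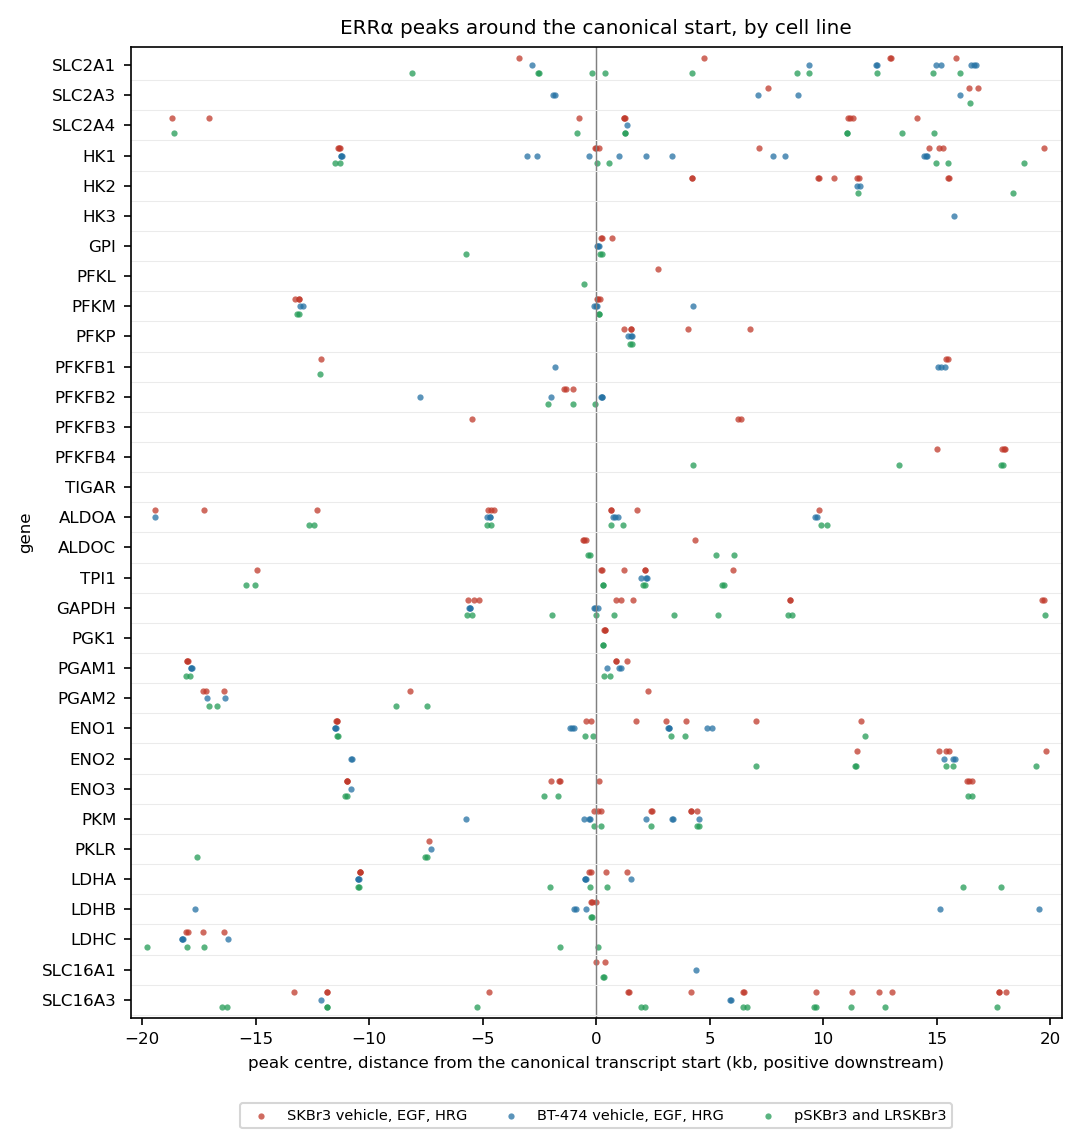
Position of the centre of each ERRα peak relative to the canonical start of its gene (0 kb, positive downstream), for peaks within 20 kb of that start and for the 32 members. Red points are the 3 SKBr3 lists, blue the 3 BT-474 lists and green pSKBr3 and LRSKBr3. GPI, PFKM, PKM, LDHA and LDHB have points of all colours close to 0, while PGK1 and ALDOC have red and green points only.

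The contrasts of the study ask whether growth factor signalling, or resistance to lapatinib, moves ERRα to other sites. Few members changed their call within 20 kb. On EGF in SKBr3, SLC16A1 was gained (1 member, 3.12%, against 7.75% of all genes) and PFKFB3 and PKLR were lost (2 members, 6.25%, against 5.56%). With HRG, the SKBr3 list gained PFKL, TIGAR and SLC16A1 (3 members, 9.38%, against 16.4%) and lost PKLR (1 member, 3.12%, against 4.3%). These shares were near or below those of all genes. The SLC16A1 gain on EGF rests on a peak at percentile 12.9. With P at most 1e-08, with P at most 1e-10 and with lists of equal size it was not called, and the 1 member gained was PFKFB1. Of these 3 alternatives, P at most 1e-10 ended the EGF losses of PFKFB3 and PKLR, and the others kept both. On HRG, SLC16A1 and PFKFB1 were gained under these 3 alternatives and TIGAR under none of them. PFKL was gained with P at most 1e-08 only, PFKFB3 with P at most 1e-10 only, and PKLR was not lost with P at most 1e-10.

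In BT-474 cells, EGF gained no member (0%, against 3.05%) and lost HK3, PGAM2, ENO3, PKLR and SLC16A3 (5 members, 15.6%, against 13.7%). For HRG, SLC2A4 was gained (1 member, 3.12%, against 8.24%) and HK3, ENO3 and PKLR were lost (3 members, 9.38%, against 5.81%). Under the same 3 alternatives the 1 member gained on HRG was PFKM and not SLC2A4, and neither HK3, ENO3 nor PKLR was among those lost. Instead, PGAM2 was lost on HRG under all 3, and SLC16A3 with lists of equal size. The 2 growth factor lists share their vehicle list, so the losses of HK3, ENO3 and PKLR in both rest on the same vehicle calls, at percentiles 2.79, 19.6 and 20.9. LRSKBr3 gained SLC2A3, PFKFB1 and PFKFB3 over pSKBr3 (3 members, 9.38%, against 14.6%), PFKFB1 through the site nearest to APEX2, and lost no member (0%, against 1.85%). Of these, SLC2A3 was gained under each of the 3 alternatives and PFKFB1 and PFKFB3 under none. PFKL was gained at both stricter P limits and lost with lists of equal size.

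At promoters the picture was similar. Promoter peaks gained within 1 kb were SLC2A3 and SLC16A1 on EGF in SKBr3 (6.25%, against 4.13%), SLC2A1, SLC2A3 and SLC16A1 on HRG in SKBr3 (9.38%, against 15.7%), none on EGF in BT-474 (0%, against 1.1%), and SLC2A3 and SLC2A4 on HRG in BT-474 (6.25%, against 3.25%). Promoter peaks lost were none on EGF in SKBr3 (0%, against 5.03%), ENO1 on HRG in SKBr3 (3.12%, against 3.34%), HK3 and SLC16A3 on EGF in BT-474 (6.25%, against 9.11%) and HK3 on HRG in BT-474 (3.12%, against 5.79%). For ENO1 on HRG, the nearest peak centre lay 1054 bp from a start, and a peak still covered the canonical start. LRSKBr3 gained promoter peaks of SLC2A3, PFKL, ENO2 and LDHC over pSKBr3 (12.5%, against 12.4%) and lost that of PFKFB2 (3.12%, against 2.04%), whose start was likewise still covered. These calls are per gene, so a gene with a promoter peak on vehicle could gain no call from a further site. With P at most 1e-10 and with lists of equal size, neither SLC2A3 nor SLC16A1 was gained on EGF in SKBr3, neither SLC2A3 nor SLC2A4 on HRG in BT-474, and only SLC2A3 in LRSKBr3, while the 3 gains on HRG in SKBr3 were still called. HK3 was not lost in BT-474 in either setting, and SLC16A3 was lost on EGF with lists of equal size only. Other calls appeared. In SKBr3 EGF, ENO3 was gained and PGAM1 lost in both settings, and ENO3 was also gained on HRG. In BT-474, P at most 1e-10 added the loss of SLC2A1, PGAM1 and LDHB on EGF, and the gain of PFKM and SLC16A3 and the loss of LDHB on HRG. Lists of equal size added the gain of PFKM on EGF, and the gain of PFKM and the loss of LDHB and SLC16A3 on HRG.

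Between the lines, PFKFB4 and ALDOC had a peak within 20 kb in the 3 SKBr3 treatment lists and in no BT-474 list (2 members, 6.25%, against 6.51% of all genes). The reverse, a peak in the 3 BT-474 lists and in none of these SKBr3 lists, was found for no member (0%, against 3.11%). The BT-474 lists rest on fewer libraries and have wider peaks, so the line and the way its list was made cannot be told apart.

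The 617 peaks near members merged into 145 sites, where peaks of any list that overlapped by at least 1 bp were joined. Of these sites, 28 were called in all 8 lists (19.3%, against 7.1% of all 90452 sites) and 41 in 1 list (28.3%, against 41.6%). A centre within 1 kb of a start was found at 40 sites, and 14 of those were called in all 8 lists. For 98 sites the nearest protein-coding start was that of a member in at least 1 list, and 47 lay nearest to another gene only. The sites near members were thus more widely shared between lists than sites at large, which were not limited to sites near starts. The share called in all 8 lists was not counted for sites near other genes or at all promoters. Whether closeness to a start accounts for the difference was not tested.

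Over all sites, the share with the ERRE word was close to that of sites elsewhere. It lay within 100 bp of a peak centre at 11 of 145 sites (7.59%, 95% Wilson interval 4.29 to 13.1), against 7.91% of all sites. At sites called in all 8 lists it was found at 4 of 28 (14.3%, 5.7 to 31.5), against 19.8% of all such sites. By list, 5 of 70 member peaks held it in SKBr3 vehicle (7.14%, 3.09 to 15.7, against 7.43% of the peaks of the list), 1 of 72 in SKBr3 EGF (1.39%, against 7.45%), 1 of 64 in BT-474 vehicle (1.56%, against 6.4%), 4 of 83 in pSKBr3 (4.82%, 1.89 to 11.7, against 8.1%) and 4 of 113 in LRSKBr3 (3.54%, 1.39 to 8.75, against 7.4%). In each of the 8 lists the interval for this word included the share of the whole list. Here and below the intervals cover counting error only and treat peaks of 1 gene as separate draws. They were not adjusted for the number of words, peak classes and lists read. Some are therefore expected to leave out the share of a list by counting error alone, and the lists share sites. The shorter word AAGGTCA was less frequent at member peaks than in the whole list, with an interval that left out the share of the list, in SKBr3 EGF (13.9%, 7.72 to 23.7, against 27.3%), pSKBr3 (14.5%, 8.47 to 23.6, against 27.4%) and LRSKBr3 (12.4%, 7.53 to 19.7, against 25.5%). In the other 5 lists the interval included it. Promoter peaks made up 36 of the 72 member peaks in SKBr3 EGF, 46 of 83 in pSKBr3 and 57 of 113 in LRSKBr3, against 4449 of 32567, 5986 of 22539 and 8553 of 39777 peaks of these lists. With promoter and other peaks read apart, the intervals of pSKBr3 and LRSKBr3 included the share of the list in both classes, and those of all 8 lists did so for peaks away from starts. The interval for AAGGTCA left out the share of the list only at promoter peaks of SKBr3 EGF (5.56%, 1.54 to 18.1, against 18.6%) and BT-474 vehicle (3.23%, 0.572 to 16.2, against 17.1%).

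In terms of genes, 10 members had the word at a peak in at least 1 list (31.2%, against 18.7% of all genes), namely SLC2A1, SLC2A4, HK1, PFKFB1, PFKFB2, PGAM1, ENO1, PKLR, LDHB and SLC16A3. With P at most 1e-10 it was 6 members, against 13.7% of all genes. By list, 5, 1, 5, 1, 2, 4, 4 and 4 members had it, against 6.62%, 7.03%, 6.83%, 5.58%, 4.81%, 6.58%, 6.54% and 8.82% of all genes, where 5 members are 15.6%, 4 are 12.5%, 2 are 6.25% and 1 is 3.12%. A gene with more peaks has more chances to hold the word, and the peaks near SLC2A1 and HK1 numbered 38 and 79 over the 8 lists. The word was present in 4 or more lists for 3 members, SLC2A4, HK1 and PFKFB2 (9.38%, against 5.77%). Across the whole width of the peaks, the word was found at 18 of 145 sites (12.4%, 8.0 to 18.8), against 12.9% of all sites. By list and class of peak, the interval for the whole width left out the share of the list at promoter peaks of SKBr3 vehicle (21.9%, 11.0 to 38.8, against 9.89%), SKBr3 HRG (15.9%, 7.93 to 29.4, against 7.54%) and pSKBr3 (17.4%, 9.09 to 30.7, against 6.92%) and nowhere else. Several peaks of a list can come from 1 member.

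AP-1 words, TGACTCA or its reverse complement TGAGTCA, lay within 100 bp of a peak centre at 18 of 145 sites (12.4%, 8.0 to 18.8), against 11.9% of all sites. At sites called in all 8 lists there were 8 of 28 (28.6%, 15.3 to 47.1), against 20%. For both words and both sets of sites the interval included the share of all sites. By list, the AP-1 share of member peaks was below that of the whole list in 7 of 8 lists, for example at 8.33% against 12.7% in SKBr3 EGF, 4.04% against 9.76% in SKBr3 HRG and 2.82% against 7.41% in BT-474 HRG, and each of the 8 intervals included the share of the list. At peaks away from starts in SKBr3 HRG it was 1 of 55 (1.82%, 0.322 to 9.61, against 11.0%), with an interval that left out the share of the list.

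**Figure D4:**
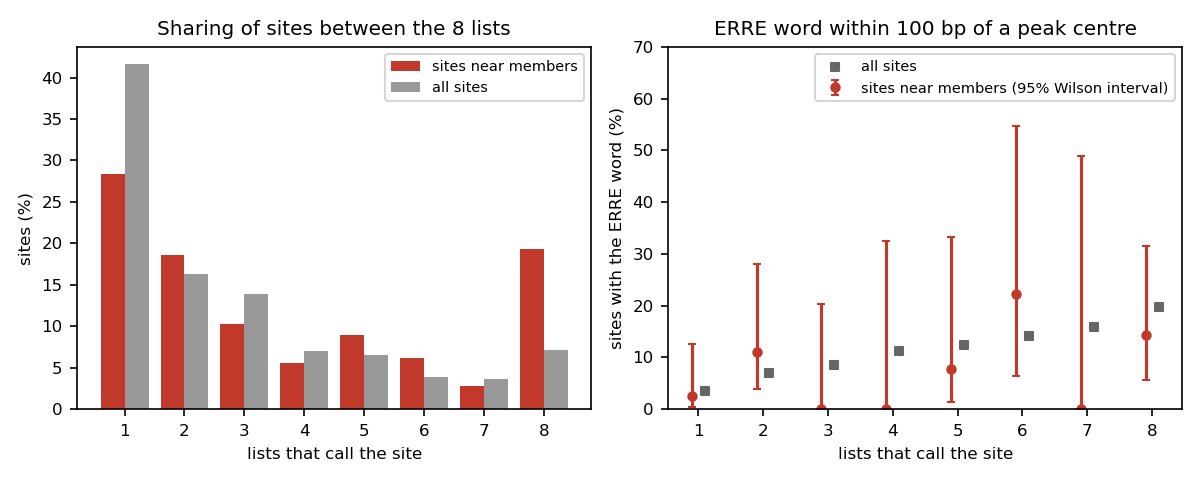
Left, percent of merged sites by the number of lists that call them, for the 145 sites near members (red bars) and all sites (grey bars). Right, percent of sites with the ERRE word within 100 bp of a peak centre, with 95% Wilson intervals for the sites near members (red circles) and all sites as grey squares. Sites called in all 8 lists make up 19.3% of the sites near members and 7.1% of all sites, and at them the word has 14.3% with an interval of 5.7 to 31.5, against 19.8%.

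The promoter sequences themselves were read from RefSeq (GRCh38.p14, windows of 300 bases around the start), where 28 of the 32 members matched by symbol. SLC2A3, SLC2A4, PFKFB2 and SLC16A1 had no entry. The ERRE word was in 0 of 28 member promoters, which allows a share of up to 10.7% (3 counts of the total), and in 0.359% of all 27305 promoters. ACGTG, the core of the hypoxia response element on either strand, was in 11 of 28 (39.3%, against 21.6% of all promoters), among them HK2, GPI, ALDOA, GAPDH, PGK1 and LDHA. CACGTG, the E-box, which contains that core, was in 4 of 28 (14.3%, against 7.43%), namely ALDOC, GAPDH, PKLR and LDHA. Within 100 bp of the centres of all member peaks, ACGTG was above the share of the list in 7 of 8 lists and below it in BT-474 HRG (5.63%, 2.21 to 13.6, against 7.67%), and the interval left out the share of the list in BT-474 vehicle (15.6%, 8.71 to 26.4, against 8.31%) and pSKBr3 (22.9%, 15.2 to 33.0, against 12.2%). At promoter peaks alone, where the word is more frequent in every list, the members' share was below that of the list in SKBr3 HRG, BT-474 HRG and LRSKBr3, and all 8 intervals included the share of the list. At peaks away from starts the interval left out the share of the list in pSKBr3 only (27%, 15.4 to 43, against 10.2%). These are letters in a window and not measured binding of any factor.

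The member peak just inside the 20 kb limit was a PGK1 peak in LRSKBr3, at 19958 bp, and the one just outside was a PFKP peak in SKBr3 HRG, at 20008 bp. Both genes had other peaks in the same list.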

How the data were processed

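ERRα ChIP-seq was analysed in SKBr3, BT-474, pSKBr3 and LRSKBr3 breast cancer cells from the 8 peak lists that the authors deposited (19 samples, 13 ChIP and 6 input libraries). Per the labels and the methods of the study, the authors aligned reads to hg19 with BWA 0.5.9, used SAMtools 0.1.18 and called peaks with MACS, keeping P values up to 1e-05. The deposited score of each peak is the authors' MACS value, a negative logarithm of the P value, and its lowest value in the lists was 50. The deposited coordinates are peak starts and ends in hg19. The lists of SKBr3 cells also carry comment lines that name FindPeaks. Library depth is not given in the sources used here.

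Transcription starts came from the GENCODE annotation lifted to GRCh37 (19515 protein-coding genes, with mitochondrial and readthrough genes left out). Peak centres within 20 kb of any start of a gene were assigned to it, so a peak can count for several genes. Words were searched on both strands of the reference within 100 bp of the centre. With 1 list per condition no test was made. Counts stand beside the share of all protein-coding genes, and Wilson intervals at 95% cover counting error only. Python 3.11.15 with numpy 2.4.6, pandas 2.3.3, scipy 1.17.1 and pysam 0.24.0 was used, and the assignment of peaks was tested on simulated data. The members and lists were chosen with earlier results of these data known. Members were described with values where they had a promoter peak in all 8 lists, the ERRE word in at least 4 lists, a call that differed in a contrast of the study, or no peak. The remaining members were described after their values were seen.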

Additional observations from a re-analysis of the deposited data

Results flagged for a closer look

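The number of members with a peak within 20 kb moved in opposite directions on HRG in the 2 lines. It differed by 2 in SKBr3 (28 on vehicle, 30 on HRG) and by -2 in BT-474 (26 on vehicle, 24 on HRG), while the share of all genes moved from 54.1% to 66.2% in SKBr3 and from 53.1% to 55.5% in BT-474. The opposite directions were not kept under every alternative. Within 5 kb, the count on vehicle and HRG was 20 and 26 in SKBr3 (36.2% and 48.9% of all genes) and 18 and 20 in BT-474 (33.6% and 34%). In BT-474 it was 20 and 20 from the nearest start only (41.3% and 43.9%), 21 and 21 within 10 kb (41.9% and 43.5%), and 22 and 22 both with P at most 1e-08 (45.9% and 46.4%) and with P at most 1e-10 (42.4% and 42.8%).

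The number with a promoter peak moved in opposite directions on EGF, by 2 in SKBr3 (17 on vehicle, 19 on EGF) and by -2 in BT-474 (16 on vehicle, 14 on EGF), while the share of all genes moved from 23.3% to 22.4% and from 19.5% to 11.5%. From the canonical start only, the counts on vehicle and EGF were 13 and 12 in SKBr3 (16.3% and 14.8% of all genes) and 10 and 9 in BT-474 (12.5% and 6.2%). From the 5′ end only they were 8 and 6 (15.7% and 14.4%) and 4 and 5 (12.1% and 6.09%). In SKBr3 they were 16 and 16 both with P at most 1e-10 (17.4% and 16.2%) and with lists of equal size (18.6% and 16.8%), and 14 and 14 for a peak over the canonical start (15.5% and 14.2%). Each number comes from 1 list, and the difference between the lines was not tested.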

How the results depend on the processing

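All 72 alternative counts of members bound per list and all 9 of members bound in all 8 lists stayed within 1.5 times the reported count, the latter at 14 to 18 members. Of the alternative counts, 32 of 90 for gains and losses, 14 of 56 for promoter peaks and 5 of 14 for the ERRE word moved further. The cause was not tested where no construction shows it. No paired analysis was possible because the numbered ChIP libraries are pooled in the lists, and for the same reason no replicate could be left out.

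Gains and losses of the 32 members moved as follows, with the share of all genes in parentheses. With P at most 1e-08, BT-474 lost 2 on EGF (13.8%) and 1 on HRG (5.77%). With P at most 1e-10, it lost 3 (13.1%) and 1 (5.58%), and SKBr3 lost 0 on EGF (6.01%) and 0 on HRG (4.81%). With lists of equal size, BT-474 EGF gained 1 (4.1%) and lost 2 (8.47%), and LRSKBr3 gained 1 (5.52%) and lost 1 (6.84%). Within 10 kb, BT-474 HRG gained 3 (7.46%), LRSKBr3 gained 6 (15.4%) and SKBr3 HRG lost 2 (4.66%). Within 5 kb, BT-474 lost 3 on EGF (11.7%) and gained 3 (6.21%) and lost 1 (5.82%) on HRG, LRSKBr3 gained 5 (14.9%), and SKBr3 gained 2 (6.13%) and lost 0 (5.91%) on EGF and gained 6 (17.2%) and lost 0 (4.51%) on HRG. From the 5′ end of the gene only, BT-474 HRG gained 2 (8.17%), LRSKBr3 gained 5 (15.7%) and SKBr3 EGF lost 1 (6.07%). From the nearest start only, BT-474 lost 3 on EGF (11.0%) and 1 on HRG (4.98%), LRSKBr3 gained 5 (16.4%) and lost 2 (2.56%), SKBr3 EGF gained 3 (7.45%) and SKBr3 HRG gained 6 (17.5%). From the canonical start only, BT-474 HRG gained 2 (8.39%) and SKBr3 EGF gained 2 (7.7%).

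Promoter counts fell where fewer starts were used. From the 5′ end only they were 8, 6 and 6 in SKBr3, 4, 5 and 5 in BT-474, 9 in pSKBr3 and 14 in LRSKBr3, beside 15.7%, 14.4%, 26.2%, 12.1%, 6.09%, 9.19%, 24.2% and 31.8% of all genes in the order of the lists, so that the 6 members of SKBr3 HRG were a smaller share than that of all genes. From the canonical start only they were 12 in SKBr3 EGF (14.8% of all genes), 12 in SKBr3 HRG (27.4%), and 10, 9 and 8 in BT-474 (12.5%, 6.2% and 9.17%). A peak over the canonical start, an alternative that like the canonical start was added after seeing the data, gave 9 in BT-474 HRG (8.54%). For the ERRE word, P at most 1e-10 left 6 members in any list (13.7% of all genes), the whole peak gave 8 members in 4 or more lists (14.5%), the shorter word AAGGTCA gave 20 and 12 members (50.4% and 21.2% of all genes), and the 5′ end only left 1 member in 4 or more lists (3.47%).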
